A study of Homo sapiens with 4 samples.

Results

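The genes described here are 48 developmental transcription factors of the SOX, GATA, T-box (TBX) and forkhead (FOX) families, typical targets of Polycomb repression, read in RNA-seq libraries of the human cell line HAP1. They were taken by family name from a list of 18 SOX, 5 GATA, 10 TBX and 15 FOX genes, and all 48 were found among the 57820 genes of the count files. Of these, 29 passed the filter on low counts (above 0.5 CPM, the gene's counts scaled to a common library size, in at least 2 libraries), out of 15136 genes that passed it. The libraries came from 2 genotypes of untreated HAP1, a nearly haploid line derived from a chronic myeloid leukaemia line and grown in IMDM medium with fetal bovine serum. The dKO group (2 libraries) lacked RING1A and RING1B, and the tKO group (2 libraries) lacked RING1A, RING1B and BAP1, so that both groups shared the loss of both RING1 enzymes and differed in BAP1. RING1A and BAP1 had been disrupted by a STOP cassette in clones picked after drug selection, and cells with an inactivated RING1B had been purchased. Each genotype was thus a selected line, and differences between clones and differences between genotypes cannot be told apart. The study's methods describe the 2 libraries of a genotype as independent biological replicates, and how they were separated in culture is not given.

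Polycomb repressive complex 1 (PRC1) places ubiquitin on histone H2A (H2AK119ub1) through RING1A or RING1B, and BAP1 removes it. In embryonic stem cells and in many differentiated cells, Polycomb complexes sit at CpG-rich promoters of developmental regulators and keep them silent outside their lineage. SOX factors bind DNA with an HMG box, GATA factors with zinc fingers, T-box factors with the T-box and forkhead factors with a winged helix. Each family supplies regulators to many lineages, including the nervous system, heart, limb, gut and blood. Setting tKO against dKO addresses the response of these genes to loss of BAP1 in cells that no longer carry the mark BAP1 removes.

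Promoter sequences were available for 29 of the 48 regulators in the RefSeq promoter table, which covers 250 bases before to 50 bases after a gene's start for 27305 promoters (GRCh38.p14), and all 29 were placed at a single position in GRCh37 by exact match. A promoter was counted as CpG-rich when its GC content was above 50% and its ratio of observed to expected CpG was above 0.6. By this measure 24 of 29 regulators were CpG-rich, against 46.8% of all promoters in the table. The median number of CpG in the 300 bases was 25 in the regulators and 14 in all promoters, and the median observed to expected ratio was 0.796 against 0.580. The 5 promoters that were not CpG-rich belonged to SOX4, SOX13, FOXB1, GATA1 and TBX4.

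The 250 bases before the start are shown for 5 regulators, with each CpG in capitals and the sequence written in the direction of the gene (RefSeq, positions in GRCh37). SOX2 was the most abundant regulator, SOX1 and SOX21 differed most between the tKO libraries among the regulators that passed the filter, and FOXL2 and GATA1 had 0 counts in all libraries.
SOX2, chr3:181429463-181429712, plus strand: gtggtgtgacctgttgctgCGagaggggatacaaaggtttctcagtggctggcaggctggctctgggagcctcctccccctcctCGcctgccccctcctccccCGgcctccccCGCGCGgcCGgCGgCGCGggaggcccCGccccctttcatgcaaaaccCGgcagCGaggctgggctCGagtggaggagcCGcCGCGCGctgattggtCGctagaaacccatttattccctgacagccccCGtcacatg
SOX1, chr13:112721213-112721462, plus strand: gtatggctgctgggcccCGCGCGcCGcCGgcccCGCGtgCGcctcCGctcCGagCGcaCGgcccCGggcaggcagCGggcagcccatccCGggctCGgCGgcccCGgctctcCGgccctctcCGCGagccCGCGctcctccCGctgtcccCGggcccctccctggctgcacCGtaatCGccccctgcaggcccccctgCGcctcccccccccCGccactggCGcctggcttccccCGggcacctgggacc
SOX21, chr13:95364800-95365049, minus strand: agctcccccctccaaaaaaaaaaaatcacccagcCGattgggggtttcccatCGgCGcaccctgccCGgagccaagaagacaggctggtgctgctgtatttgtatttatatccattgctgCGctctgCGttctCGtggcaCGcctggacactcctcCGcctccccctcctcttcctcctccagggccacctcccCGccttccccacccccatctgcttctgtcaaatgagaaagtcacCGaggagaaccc
FOXL2, chr3:138665980-138666229, minus strand: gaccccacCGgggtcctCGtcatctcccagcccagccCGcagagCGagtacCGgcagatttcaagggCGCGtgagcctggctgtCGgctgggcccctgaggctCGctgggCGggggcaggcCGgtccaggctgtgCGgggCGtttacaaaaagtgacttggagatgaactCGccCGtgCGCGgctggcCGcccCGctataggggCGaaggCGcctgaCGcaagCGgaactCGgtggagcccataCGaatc
GATA1, chrX:48644748-48644997, plus strand: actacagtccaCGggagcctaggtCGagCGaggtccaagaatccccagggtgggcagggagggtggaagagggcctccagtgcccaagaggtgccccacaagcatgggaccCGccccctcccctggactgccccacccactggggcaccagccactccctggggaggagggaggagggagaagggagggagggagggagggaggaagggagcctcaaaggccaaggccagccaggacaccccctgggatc

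The stretch before SOX1 held 31 CpG at a GC content of 82%, the one before SOX2 held 20 at 68.8%, and the one before SOX21 held 11 at 58.8%. FOXL2 and GATA1 had the same GC content, 68.4%, but 25 and 4 CpG. A silent gene therefore stood behind a promoter with many CpG in one case and with few in the other. Among the regulators with a promoter sequence, 19 of the 22 that passed the count filter and 5 of the 7 that did not were CpG-rich, with median observed to expected ratios of 0.819 and 0.733. A CpG-rich promoter was thus common on both sides of the filter.

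The promoters were also searched on both strands for 1 short core motif per family, in the window of 300 bases. The SOX letters ACAAAG were present in 3 of 29 regulators (SOX2, FOXA1 and FOXD3) and in 15.997% of all promoters. The GATA letters AGATAA were in FOXF2 alone, against 10.5% of all promoters. The T-box letters AGGTGTGA were in FOXB1 alone (0.982% of all), and the forkhead letters TGTTTAC in SOX12 alone (3.41% of all). Of these matches only the one in SOX2 paired a family with its own letters. No motif is contained in another, and a match is given as a description of the sequence.

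Gene counts numbered between 16054590 and 18455410 in a library, and both tKO totals were below both dKO totals. At this depth 1 count was between 0.0542 and 0.0623 CPM, and the level that 0 counts allow (3 counts) was between 0.163 and 0.187 CPM. Intervals and floors cover counting error only. BAP1 had 111 and 112 CPM in the dKO libraries and 9.63 and 6.66 CPM in the tKO libraries, a log2 fold change of -3.77 (SE 0.19, limma adjusted p = 0.0065), so the labels held for the gene that separates the groups. BAP1 lies on chromosome 3 in a neighbourhood that was low in tKO 2 (median log2 difference from dKO of -0.91 over 117 genes) and not in tKO 1 (-0.00051). RING1, the gene of RING1A, had between 12 and 17 counts in every library, and RNF2, the gene of RING1B, had between 68.6 and 86.8 CPM in every library. The RNF2 transcript was therefore still counted in all 4 libraries, and its level says nothing about the protein. Each tKO library had a stretch of a chromosome that was low. Genes within 5 Mb of CTNNB1 on chromosome 3 had a median log2 difference from dKO of -0.99 in tKO 2, and genes within 5 Mb of GATA3 on chromosome 10 had one of -0.94 in tKO 1. No regulator of the list lay on chromosome 10, and the 4 on chromosome 3 lay outside the low stretch. Over the neighbourhoods of the regulators that passed the filter (22 to 138 tested genes within 5 Mb), the median differences lay between -0.09 and 0.03 in tKO 1 and between -0.10 and 0.16 in tKO 2.

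HAP1 cells in these libraries carried few markers of blood. Of 14 blood cell markers, 11 had fewer than 10 counts in every library and 6 had 0 in all, among them SPI1, MPO and HBB, while PTPRC had 1 count in all. KIT was at 47.5, 58.7, 51.7 and 46.2 CPM in dKO 1, dKO 2, tKO 1 and tKO 2. RUNX1, a factor of blood development, was at 16.1 and 13.4 CPM in dKO and 11.4 and 7.10 CPM in tKO. Its log2 fold change was -0.70 (SE 0.27, limma adjusted p = 0.996). Both tKO libraries lay below both dKO libraries, as for 16.3% of all tested genes. The summed level of the blood markers lay between 66.4 and 77.8 CPM in dKO and between 55.6 and 65.7 CPM in tKO, and its part in the results was not tested. Markers of endothelium summed to between 1.84 and 4.26 CPM, with 3 of the 5 matched at 0 in all libraries. Markers of endoderm and liver summed to between 15.0 and 17.7 CPM, nearly all from CDX2, and those of mesenchyme and muscle to between 15.1 and 18.6 CPM, with 5 of 7 at 0. Neural markers summed to 45.2 and 59.2 CPM in dKO and to 40.9 and 58.6 CPM in tKO, so the groups overlapped. Of these, SYP, a synaptic vesicle protein, was at 5.85 and 5.73 CPM in dKO and 8.41 and 13.5 CPM in tKO (log2 fold change 0.87, SE 0.26, limma adjusted p = 0.996). MAP2 made up most of the neural sum, at 33.3 and 45.7 CPM in dKO and 25.8 and 41.3 CPM in tKO. COL1A1, of the mesenchyme list, was at 10.5 and 12.8 CPM in dKO and 12.9 and 10.8 CPM in tKO. Most markers of each list thus had fewer than 10 counts in every library, but each list had at least 1 above that.

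In cells without RING1A and RING1B, the regulators ranged from genes at 0, through rare transcripts, to genes at readily measured levels. At least 1 count was found for 39 of 48, and 9 had 0 counts in all 4 libraries. These 9 were SOX3, SOX9, SOX10, SOX17, GATA1, GATA5, TBX4, FOXA2 and FOXL2. The share that passed the filter was 60.4%, against 26.2% of all genes in the files. All 48 are protein-coding, whereas the files also hold noncoding genes, so the 2 shares are not like for like. By family it was 12 of 18 SOX, 2 of 5 GATA, 7 of 10 TBX and 8 of 15 FOX genes. Levels between genes were compared per kilobase of exon. Exon lengths came from a later annotation release than the one used for counting, so these levels are approximate. SOX2 led with a mean of 311 CPM per kilobase over the 4 libraries, followed by SOX4 (25.4), TBX5 (17.2), SOX21 (14.8), SOX12 (14.7) and FOXA1 (14.1). SOX2 was above every other regulator in every library, whereas the spread of SOX21 over the libraries covered the means of TBX5, SOX12 and FOXA1. The lowest of the regulators that passed were TBX6 (0.435 CPM per kilobase), SOX18 (0.405) and FOXB1 (0.273).

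**Figure D1:**
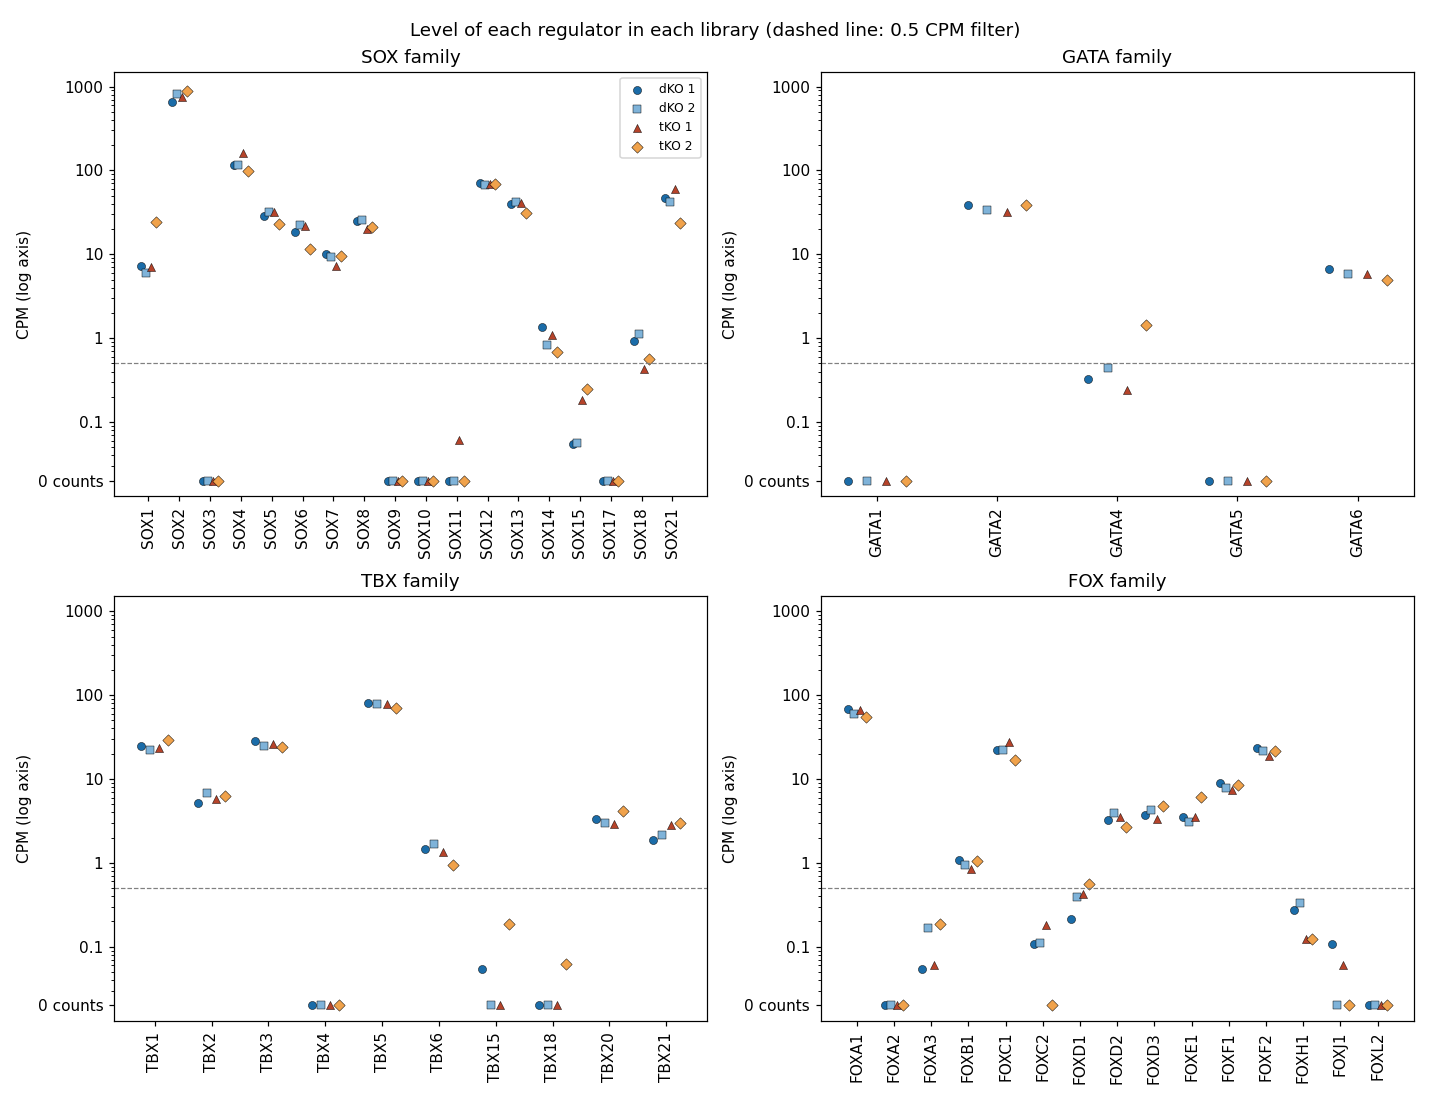
Level in CPM (log axis) of the 48 regulators by family, with 1 point per library: dKO 1 and dKO 2 in blue, tKO 1 and tKO 2 in red and orange. The dashed line is the 0.5 CPM filter and genes without a count sit on the row marked 0 counts; SOX2 stands highest, 9 genes lie on the 0 row in all libraries, and the tKO 2 points of SOX1 and GATA4 lie above the other 3.

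None of the 29 regulators that passed the filter was differentially expressed between tKO and dKO (limma, two-sided, Benjamini-Hochberg adjusted p below 0.05 and absolute log2 fold change above 1). The background was 2 of 15136 genes, 0.0132%, so a count of 0 among 29 does not set them apart. At an unadjusted p below 0.05 the regulators again numbered 0 (limma), against 3.55% of all tested genes. By the edgeR quasi-likelihood test the number at an unadjusted p below 0.05 was 2 (SOX1 and SOX18) and by DESeq2 it was 1 (SOX1), with 0 past the adjusted threshold by either. The same count over all tested genes was 3.5% by edgeR and 2.12% by DESeq2. Limma without a trend gave SOX18 an unadjusted p of 0.0056 and TBX21 one of 0.0138 (adjusted p 0.786 and 0.925). Below 0.05 unadjusted were also FOXH1, SOX8, SOX15 and SOX18 in limma without a filter, and SOX18 with unstranded counts. The share over all genes was not computed for these fits. In the main limma fit the smallest unadjusted p of any regulator was 0.0515 (SOX18) and the smallest adjusted p was 0.996. In tKO, 10 were higher and 19 lower, with a median log2 fold change of -0.08, against 7523 higher and 7613 lower and a median of -0.00137 among all tested genes. The median was -0.21 for SOX, -0.12 for GATA, 0.02 for TBX and -0.08 for FOX genes.

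A log2 fold change above 1 in size was reached by 0 of the 29, against 1.78% of all tested genes, the range being -0.89 (SOX18) to 0.97 (SOX1). The 95% interval of the fold change lay within a log2 change of 1 in either direction for 21 of the 29, and reached it for 8. Among the 18 regulators with at least 100 counts in every library, 15 had such an interval. For the 21 genes the intervals left room for changes of less than 2-fold only. The 8 that reached 2-fold were SOX1, SOX6 and SOX21, and the rarer SOX14, SOX18, TBX6, TBX21 and FOXE1. Both tKO libraries lay above both dKO libraries for 2 regulators (TBX21 and FOXE1), against 15.1% of all tested genes, and below both for 4 (SOX8, SOX18, TBX6 and FOXF2), against 16.3%. Neither share was above its background.

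**Figure D2:**
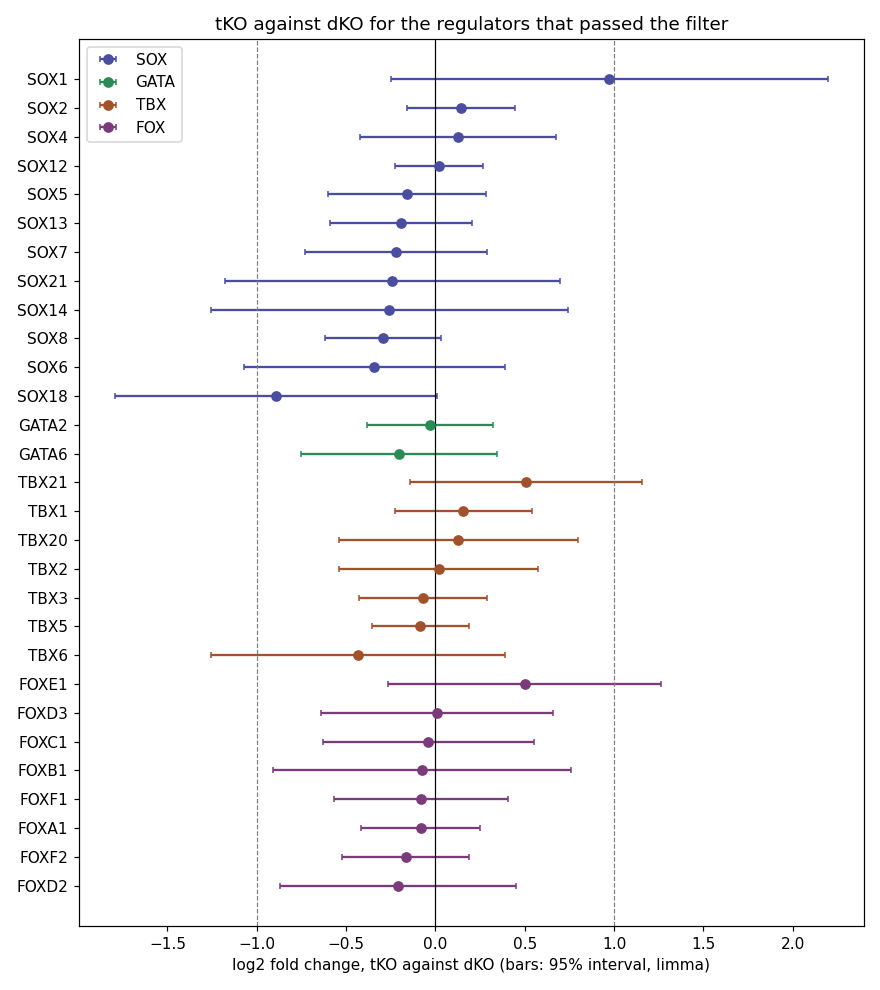
Log2 fold change of tKO against dKO for the 29 regulators that passed the filter, ordered within each family and coloured by it; bars are 95% intervals from limma and dashed lines mark a 2-fold change in either direction. The intervals of all 29 cross 0, and SOX1 and SOX18 lie furthest from it at 0.97 and -0.89.

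SOX genes fall into groups by sequence. The B1 group, factors of pluripotent and neural progenitor cells, is made up of SOX1, SOX2 and SOX3. SOX2, a core factor of pluripotency (chromosome 3, 181429713 to 181432224, GRCh37), was at 661 and 828 CPM in dKO and at 760 and 875 CPM in tKO. The groups overlapped, with tKO 1 below dKO 2, and the log2 fold change was 0.14 (SE 0.13, 95% interval -0.16 to 0.45). SOX1, a marker of early neural plate cells (chromosome 13, 112721463 to 112726020), was at 7.31 and 6.06 CPM in dKO, 7.13 CPM in tKO 1 and 24.2 CPM in tKO 2. One library therefore stood far above the other 3, which lay close together. The log2 fold change was 0.97 with an SE of 0.51 (95% interval -0.25 to 2.20, limma adjusted p = 0.996). SOX3, the third of the group, had 0 counts throughout.

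The B2 group, SOX14 and SOX21, acts mainly as repressors in neural development. SOX21 (chromosome 13, 95361876 to 95364799) was at 47.5 and 42.4 CPM in dKO, 60.0 CPM in tKO 1 and 23.8 CPM in tKO 2. The tKO libraries lay on either side of the dKO pair, and the log2 fold change of -0.24 (SE 0.39) averages values of opposite direction. SOX14 was rare, at 1.35 and 0.834 CPM in dKO and 1.10 and 0.685 CPM in tKO. Its libraries alternated between the groups and its 2 dKO libraries were the furthest apart of any regulator that passed the filter, by -0.65 on the log2 scale.

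In the C group, factors of neuronal and mesenchymal progenitors, SOX4 and SOX12 were transcribed and SOX11 had 1 count in all. SOX4 was at 115 and 117 CPM in dKO, 164 CPM in tKO 1 and 97.7 CPM in tKO 2. Again the tKO libraries fell on both sides of a tight dKO pair (log2 fold change 0.13, SE 0.23). SOX12 was at 70.2, 66.6, 68.5 and 69.8 CPM, and was among the steadiest of the regulators (log2 fold change 0.02, SE 0.10). The D group, which lacks a transactivation domain and of which SOX5 and SOX6 work with SOX9 in cartilage, was transcribed in full. SOX5 had 28.9 and 32.0 CPM in dKO and 31.9 and 23.2 CPM in tKO, and SOX13 had 40.2 and 42.4 CPM in dKO and 41.5 and 31.3 CPM in tKO. SOX6 had 18.5 and 22.1 CPM in dKO, 21.9 CPM in tKO 1 and 11.5 CPM in tKO 2. In each of the 3 genes tKO 1 lay within the dKO pair and tKO 2 lay below it.

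Of the E group, factors of neural crest, glia and testis, SOX8 alone was transcribed, and SOX9 and SOX10 had 0 counts. SOX8 was at 25.1 and 25.5 CPM in dKO and at 19.9 and 21.2 CPM in tKO. Both tKO libraries were below both dKO libraries, with a log2 fold change of -0.29 (SE 0.14, 95% interval -0.62 to 0.03, limma adjusted p = 0.996). The F group acts in endothelium and endoderm. SOX7 was at 10.0 and 9.39 CPM in dKO and 7.19 and 9.53 CPM in tKO, with overlap. SOX18, a lymphatic endothelial factor, had 17 and 20 counts in dKO and 7 and 9 counts in tKO, or 0.921, 1.11, 0.426 and 0.561 CPM. The groups did not overlap, and the log2 fold change was -0.89 (SE 0.38, 95% interval -1.80 to 0.01, limma adjusted p = 0.996). With at most 20 counts in a library, SOX18 was close to the filter, and tKO 1 was below it. SOX17 had 0 counts, and SOX15, the only member of its group, had between 1 and 4.

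Among GATA factors, GATA2, needed in blood stem cells and also active in trophoblast and neurons, was at 38.3 and 33.7 CPM in dKO and 31.9 and 38.6 CPM in tKO. GATA6, a factor of primitive endoderm and heart, was at 6.61 and 5.84 CPM in dKO and 5.85 and 4.92 CPM in tKO. The groups overlapped for both genes, with log2 fold changes of -0.03 (SE 0.15) and -0.20 (SE 0.23). GATA1, the erythroid factor, and GATA5 had 0 counts in all libraries. GATA4, a heart and endoderm factor, did not pass the filter, with 6 and 8 counts in dKO, 4 in tKO 1 and 23 in tKO 2. That is 0.325, 0.445, 0.244 and 1.43 CPM, and the exact Poisson interval of tKO 2 (0.908 to 2.15 CPM) lay above those of the other 3 libraries, the highest of which ended at 0.876 CPM.

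Of the T-box genes, TBX5 had the highest level per kilobase (17.2 CPM), followed by TBX1 (6.32) and TBX3 (4.34). TBX5, mutated in a heart and hand syndrome, was at 80.3 and 77.4 CPM in dKO and 78.7 and 69.9 CPM in tKO. Its neighbour TBX3 encodes a transcriptional repressor that acts in limb and breast development. TBX3 was at 28.5 and 24.6 CPM in dKO and 26.2 and 24.2 CPM in tKO. TBX1, a pharyngeal factor, was at 24.9 and 22.1 CPM in dKO and 23.5 and 28.9 CPM in tKO. The libraries of both groups were interleaved in all 3 genes, with log2 fold changes of -0.08 (SE 0.11), -0.07 (SE 0.15) and 0.16 (SE 0.16). TBX2, a close relative of TBX3, was at 5.15 and 6.78 CPM in dKO and 5.73 and 6.23 CPM in tKO. TBX20, a heart factor, was at 3.36 and 3.002 CPM in dKO and 2.92 and 4.11 CPM in tKO. Both genes overlapped between the groups.

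TBX21 (T-bet), a regulator of T helper cells, was at 1.90 and 2.17 CPM in dKO and 2.86 and 2.99 CPM in tKO. The groups did not overlap and the libraries within each lay close together, but only 35 to 48 counts stood behind each value, and the log2 fold change of 0.51 (SE 0.27, 95% interval -0.14 to 1.16) had a limma adjusted p of 0.996. TBX6, a factor of presomitic mesoderm, was at 1.46 and 1.67 CPM in dKO and 1.34 and 0.934 CPM in tKO. It lay lower in both tKO libraries (log2 fold change -0.44, SE 0.34, limma adjusted p = 0.996). TBX4 had 0 counts, and TBX15 and TBX18 had at most 3 in a library.

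Of the forkhead pioneer factors of endoderm, FOXA1 was transcribed, FOXA2 had 0 counts and FOXA3 had between 1 and 3. FOXA1 was at 68.0 and 59.9 CPM in dKO and 65.7 and 54.9 CPM in tKO, with overlap (log2 fold change -0.08, SE 0.14). FOXC1, a factor of eye and vessel development, was at 21.9 and 22.3 CPM in dKO, 27.6 CPM in tKO 1 and 16.7 CPM in tKO 2. Its tKO libraries lay on either side of the dKO pair. The mesenchymal factors FOXF1 and FOXF2 differed in pattern: FOXF1 was at 8.89 and 7.89 CPM in dKO and 7.31 and 8.53 CPM in tKO, and FOXF2 was at 23.2 and 21.8 CPM in dKO and 18.7 and 21.4 CPM in tKO. FOXF2 lay lower in both tKO libraries by a small margin (log2 fold change -0.17, SE 0.15, limma adjusted p = 0.996), and FOXF1 overlapped.

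FOXE1, a thyroid factor, was at 3.52 and 3.06 CPM in dKO, 3.53 CPM in tKO 1 and 6.17 CPM in tKO 2. The groups did not overlap by the narrowest margin, tKO 1 being level with dKO 1, and the log2 fold change of 0.50 (SE 0.32, limma adjusted p = 0.996) came from tKO 2. FOXD3, a neural crest and stem cell factor, was at 3.74 and 4.28 CPM in dKO and 3.35 and 4.80 CPM in tKO. FOXD2 was at 3.25 and 3.89 CPM in dKO and 3.47 and 2.68 CPM in tKO, and FOXB1, a neural factor, was at 1.08 and 0.945 CPM in dKO and 0.853 and 1.06 CPM in tKO. In these 3 genes the groups overlapped. FOXC2, FOXD1, FOXH1 and FOXJ1 had between 0 and 9 counts in a library and did not pass, and FOXL2, the ovarian factor, had 0. FOXH1, which works with SMAD proteins downstream of NODAL, had 5 and 6 counts in dKO and 2 and 2 in tKO.

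Some regulators of opposite state lay side by side. TBX2 and TBX4 are 42.9 kb apart on chromosome 17, and TBX2 was transcribed while TBX4 had 0 counts. FOXF1 and FOXC2 are 51.4 kb apart on chromosome 16, and FOXC2 had between 0 and 3 counts against at least 120 for FOXF1. In FOXF2 and FOXC1 (214 kb apart on chromosome 6) and TBX5 and TBX3 (262 kb apart on chromosome 12), both neighbours were transcribed. SOX7 and GATA4 are 946 kb apart on chromosome 8, and tKO 2, in which GATA4 was highest, was not high for SOX7. These were the only pairs of the 48 genes within 1000 kb of each other.

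The widest differences among the regulators that passed the filter were between the libraries of the tKO group. The median size of the log2 difference between the libraries of a genotype was 0.30 in tKO and 0.19 in dKO, against 0.20 and 0.14 over all tested genes. The tKO pair was further apart than the dKO pair for 23 of the 29, or 79.3%, against 60.5% of all tested genes. A difference above 2-fold within the tKO pair was found for 2 regulators, SOX1 and SOX21, against 6.04% of all tested genes, and within the dKO pair for 0, against 1.5%. The share over 2-fold was thus near the background. For all 8 tested FOX genes and both tested GATA genes the tKO pair was the wider one, against 9 of 12 SOX and 4 of 7 TBX genes.

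**Figure D3:**
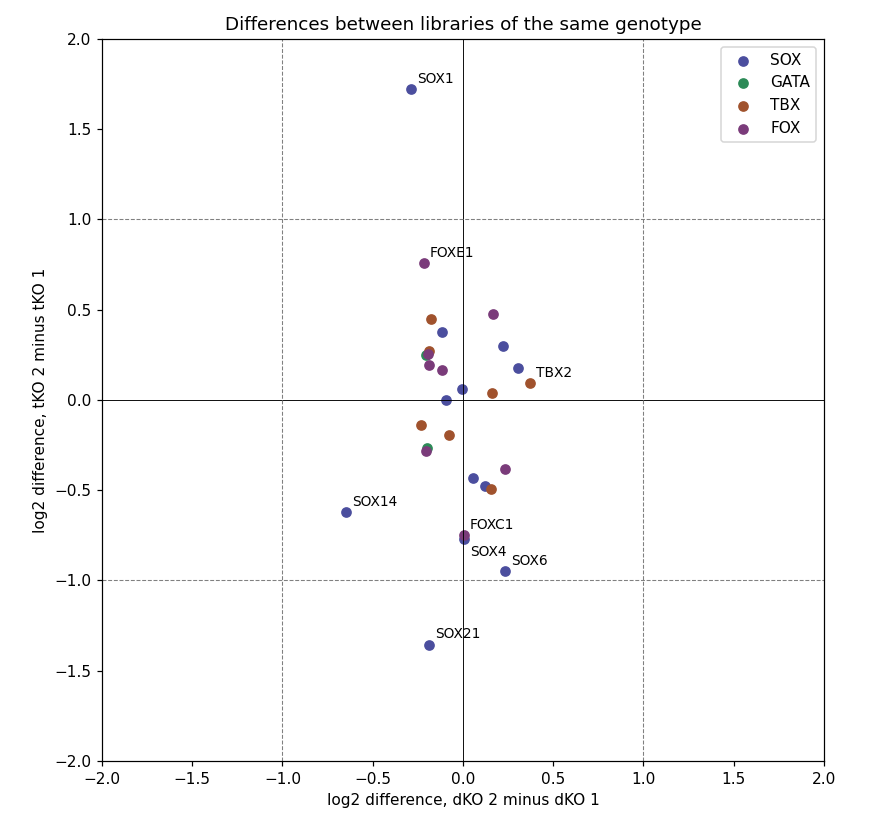
Difference between the libraries of a genotype, in log2-CPM, for the 29 regulators that passed the filter: dKO 2 minus dKO 1 on the horizontal axis and tKO 2 minus tKO 1 on the vertical axis, with dashed lines at 2-fold. The points spread along the vertical axis, with SOX1 at 1.72 and SOX21 at -1.36 beyond 2-fold and no gene beyond it on the horizontal axis.

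From tKO 1 to tKO 2 the log2 difference was 1.72 for SOX1, 0.76 for FOXE1, -0.75 for FOXC1, -0.77 for SOX4, -0.95 for SOX6 and -1.36 for SOX21. For SOX1, SOX21, SOX6 and SOX4 the difference from dKO 1 to dKO 2 was -0.29, -0.19, 0.23 and 0.01. Counting error does not cover these gaps. SOX21 had an exact Poisson interval of 56.3 to 63.9 CPM in tKO 1 and 21.5 to 26.3 CPM in tKO 2, and SOX1 one of 5.90 to 8.54 CPM in tKO 1 and 21.8 to 26.7 CPM in tKO 2. In RNA from whole cultures, more RNA in each cell and a larger share of cells with the transcript cannot be told apart. Both genes are on chromosome 13, and their differences were opposite in sign.

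Against the dKO mean, a difference above 2-fold was found for 1 regulator in tKO 1, SOX18 (log2 difference -1.04), against 2.45% of all tested genes, and for 1 in tKO 2, SOX1 (1.83), against 4.4%. The 28 tested genes within 5 Mb of SOX1 had a median difference from dKO of 0.02 in tKO 1 and 0.04 in tKO 2, and the 22 around SOX21 had -0.06 and -0.00. The median over the neighbouring genes was thus far from the shift of either gene, which does not describe each neighbour.

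The call of SOX1 rested on which tKO library was used. With tKO 1 left out, limma gave SOX1 a log2 fold change of 1.83 (adjusted p = 1.98e-13) and called it differentially expressed, against 3.21% of the 14936 genes then tested. At an adjusted p below 0.05 alone, SOX21 (-0.92, adjusted p = 1.98e-08) and SOX6 (-0.82, adjusted p = 0.000611) passed with it, 3 of 29 against 8.34%. With tKO 2 left out, 0 regulators were differentially expressed against 1.17% of 14902 genes, and 2 passed an adjusted p below 0.05, SOX4 (log2 fold change 0.51, adjusted p = 0.000505) and SOX21 (0.44, adjusted p = 0.0427), against 2.91%. SOX1 had a log2 fold change of 0.11 in that fit (adjusted p = 0.962). In these fits the remaining tKO library was assumed to vary like the dKO pair, so the values compare 1 library with dKO. SOX21 passed in both with opposite signs.

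Noncoding neighbours of the regulators were read alongside them. Of 20 that were found, 11 passed the filter and 0 were differentially expressed, with 7 higher and 4 lower in tKO (median log2 fold change 0.12). Against 3.55% of all tested genes, 1 had an unadjusted p below 0.05 (limma). This was SOX1-OT, a transcript that overlaps SOX1 on the same strand, at 1.41 and 1.22 CPM in dKO, 3.41 CPM in tKO 1 and 8.16 CPM in tKO 2 (log2 fold change 1.92, SE 0.43, limma adjusted p = 0.911). Both tKO libraries were above both dKO libraries for 3 of the 11 tested neighbours, against 15.1% of all tested genes. SOX1-OT was among them, whereas SOX1 itself was above both dKO libraries in tKO 2 alone. Reads over exons of both were not assigned to either gene, so the values of each leave out shared sequence. The most abundant were TBX5-AS1 (145, 151, 177 and 145 CPM in dKO 1, dKO 2, tKO 1 and tKO 2), SOX2-OT (71.0, 77.3, 107 and 62.7 CPM) and SOX21-AS1. SOX21-AS1, antisense to SOX21, was at 19.2 and 23.9 CPM in dKO and 22.5 and 19.2 CPM in tKO. Its libraries overlapped, and the gap of SOX21 between the tKO libraries was not seen there.

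**Figure D4:**
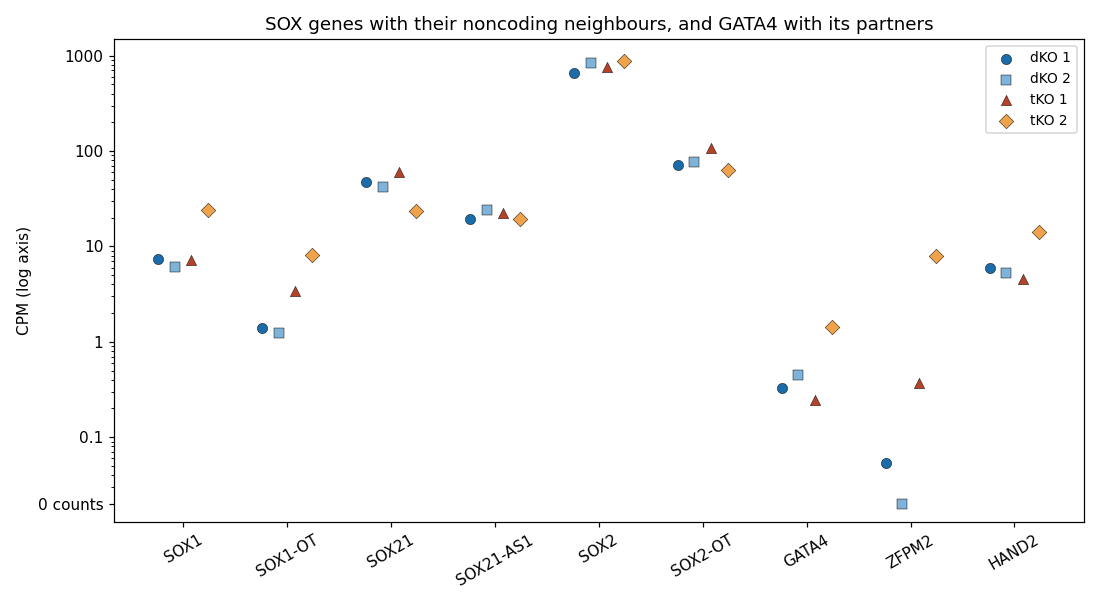
Level in CPM (log axis) in each library of SOX1, SOX21 and SOX2 beside their noncoding neighbours, and of GATA4 beside ZFPM2 and HAND2. The last 2 were chosen after their values had been seen. In tKO 2 SOX1, SOX1-OT, GATA4, ZFPM2 and HAND2 stand above the other 3 libraries, SOX21 stands below them, and SOX21-AS1 stays between 19.2 and 23.9 CPM.

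Other genes of the same families and of their pathways were counted in the same fit. Of 37 further SOX, GATA, T-box and forkhead genes, 23 passed the filter and 0 were differentially expressed, with 10 higher and 13 lower in tKO (median log2 fold change -0.04). FOXK1, a forkhead protein that binds BAP1, was at 92.2 and 83.6 CPM in dKO and 113 and 113 CPM in tKO. Its log2 fold change was 0.36 (SE 0.10, limma adjusted p = 0.996). It was the only gene of the list at an unadjusted p below 0.05 (limma), against 3.55% of all tested genes. Both tKO libraries were above both dKO libraries for 2 of the 23 tested genes, FOXK1 among them, against 15.1% of all tested genes. The most abundant were the mitotic regulator FOXM1 (231, 182, 206 and 252 CPM in dKO 1, dKO 2, tKO 1 and tKO 2), MGA (227, 226, 181 and 224 CPM), a T-box protein of a variant PRC1, and FOXK2 (131, 118, 128 and 120 CPM).

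Of 24 cofactors and signalling partners, 22 passed the filter and 0 were differentially expressed, with 9 higher and 13 lower in tKO (median -0.06). An unadjusted p below 0.05 (limma) was found for 0 of them, against 3.55% of all tested genes. The most abundant was CTNNB1 (beta-catenin), at 598 and 597 CPM in dKO, 630 CPM in tKO 1 and 275 CPM in tKO 2. It lies in the chromosome 3 stretch that was low in tKO 2. The corepressor TLE5 was at 205 and 201 CPM in dKO and 191 and 200.5 CPM in tKO, and SMAD3 at 149 and 148 CPM in dKO and 145 and 129.6 CPM in tKO. Both tKO libraries lay below both dKO libraries for these genes, by log2 fold changes of -0.05 (SE 0.09) and -0.11 (SE 0.10). Of the 22 tested cofactors, 4 lay below in this way, against 16.3% of all tested genes, and 2 above, against 15.1%.

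Textbook targets of the regulators were largely silent. Of 48 listed, 47 were found, 30 had fewer than 10 counts in every library, 15 of them 0 in all, and 16 passed the filter. None of the 16 was differentially expressed, with 5 higher and 11 lower in tKO (median log2 fold change -0.12). None had an unadjusted p below 0.05 (limma), against 3.55% of all tested genes. COL2A1, the cartilage collagen driven by SOX9 with SOX5 and SOX6, was at 400 and 388 CPM in dKO and 334 and 375 CPM in tKO, in libraries without a count of SOX9. NES (nestin), a SOX2 target in neural progenitors, was at 181 and 205 CPM in dKO, 179 CPM in tKO 1 and 121 CPM in tKO 2. PROX1, a SOX18 target in lymphatic endothelium, was at 28.6 and 32.6 CPM in dKO and 30.9 and 29.96 CPM in tKO, within the dKO range although SOX18 was lower.

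A further 3 partner genes were chosen after their values had been seen. ZFPM2 (FOG2), a cofactor that binds GATA4, had 1 and 0 counts in dKO, 6 in tKO 1 and 126 in tKO 2. HAND2, which acts with GATA4 in heart and limb, was at 5.96 and 5.28 CPM in dKO, 4.51 CPM in tKO 1 and 14.3 CPM in tKO 2 (log2 fold change 0.52, limma adjusted p = 0.996). Both had their highest level in tKO 2, as GATA4 did. Other heart factors of the same list were mixed. MEF2C was at 31.2 and 25.4 CPM in dKO and 21.1 and 27.9 CPM in tKO, and NKX2-5 had 0 counts. ISL1 was at 4.23 and 5.34 CPM in dKO and 5.42 and 6.79 CPM in tKO, and so was also highest in tKO 2. A link between these genes was not tested. POU5F1 (OCT4), the partner of SOX2 in pluripotent cells, was at 69.5 and 77.5 CPM in dKO, 50.1 CPM in tKO 1 and 129 CPM in tKO 2 (log2 fold change 0.14, limma adjusted p = 0.996). Its tKO libraries lay on either side of the dKO pair, while those of SOX2 did not.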

How the data were processed

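RNA-seq of polyadenylated RNA was available for 2 dKO and 2 tKO libraries, grouped by the genotype in the labels. Per the labels and the study's methods, the authors trimmed reads with cutadapt (1.12) through Trim Galore (0.4.4), removed ribosomal reads with Bowtie (1.2) and mapped the rest to GRCh37 with STAR (2.5.2b). The deposited values are raw counts of uniquely mapped reads per gene, in unstranded and strand-specific columns. The column antisense to the gene, which fits the stranded kit, was used, and the other strand column held between 4.01% and 4.24% of the stranded gene counts. Reads not assigned to a gene made up between 27.3% and 28.7% of all reads and stayed out of library sizes. They include multimapping, unmapped and ambiguous reads, and reads in no annotated feature were between 10.0% and 11.1%. Symbols and exon lengths came from GENCODE release 44 lifted to GRCh37, whereas the study counted reads over an earlier release. Near-identical or overlapping genes lose shared reads.

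Log2-CPM used TMM sizes and 2 as prior count (edgeR 4.0.16), which understates changes of rare genes. Genes with CPM above 0.5 in at least 2 libraries were fitted with genotype as the only term in limma with a mean-variance trend (3.58.1, R 4.3.3). Adjusted p-values are Benjamini-Hochberg values over all tested genes, and a gene was called at an adjusted p below 0.05 with an absolute log2 fold change above 1. The prior count and the trend were chosen here, and the rest follows the study's methods. P-values measure the spread between these libraries only. The fit was tested on simulated data. Alternatives were edgeR quasi-likelihood, DESeq2 (1.42.0), limma-voom, limma without a trend, other size factors, filters, prior counts and strand columns, a replicate block, and leaving out each library.

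The members and gene lists were chosen with earlier results of these data known. Every regulator that passed the filter is named, with the others given by family. From the other lists the genes named are those with an unadjusted p below 0.05, up to 3 a list, and up to 3 of the most abundant. Genes outside this rule are GATA3, which marks a chromosome stretch, the silent markers named, KIFC2, antisense to FOXH1, and 3 partner genes, all chosen after their values were seen.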

Additional observations from a re-analysis of the deposited data

Results flagged for a closer look

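Reads on the strand opposite to the gene, which entered no comparison, were higher in both tKO libraries than in both dKO libraries for 3 of the 12 regulators with more than 3 such counts in each tKO library, against 21.5% of the 6648 genes with as many, so the share is near the background. For FOXA1 these reads were at 0.609 CPM in tKO 1 and 0.311 CPM in tKO 2, against 0.217 and 0.278 CPM in dKO, with between 4 and 10 counts behind each value. For FOXD3, which has an antisense transcript, they were at 0.792 and 1.06 CPM in tKO against 0.759 and 0.611 CPM in dKO. For FOXH1, which overlaps KIFC2 on the other strand, they were at 9.20 and 9.72 CPM in tKO against 8.94 and 9.06 CPM in dKO. FOXA1 also overlaps a gene on the other strand. In all 3 genes these reads lie on the strand of the antisense partner, and the gene's own reads were counted separately. The differences and the origin of the reads were not tested.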

How the results depend on the processing

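No regulator was differentially expressed in any alternative except SOX1 without tKO replicate 1. The number over all genes, 2 as reported, was 0 without a filter, 1 at CPM above 5, 1 by the edgeR quasi-likelihood test, 25 by DESeq2, 1 by limma without a trend, 1 with unstranded counts, and between 0 and 480 with a library left out. With a library left out, the number of regulators called was 0 to 1 and their median log2 fold change -0.14 to 0.0136. Of 426 fold changes of single regulators under the alternatives, 393 kept their sign and their call, 32 changed sign and 1, that of SOX1, passed the threshold. The cause was not tested. Signs changed for FOXD3 without a filter (-0.00087) and with unstranded counts (-0.14), for FOXD2 (0.0043) and TBX2 (-0.0018) with unstranded counts, and for FOXC1 by edgeR (0.0075) and DESeq2 (0.0080).

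With each library left out in turn, the log2 fold change ranged over both signs for 18 regulators: SOX2 -0.0112 to 0.30, SOX4 -0.26 to 0.51, SOX5 -0.40 to 0.0826, SOX6 -0.82 to 0.13, SOX12 -0.0282 to 0.0647, SOX13 -0.41 to 0.0245, SOX14 -0.58 to 0.0634, SOX21 -0.92 to 0.44, GATA2 -0.15 to 0.0932, TBX2 -0.17 to 0.20, TBX3 -0.19 to 0.0453, TBX5 -0.18 to 0.0136, TBX20 -0.10 to 0.35, FOXA1 -0.23 to 0.0591, FOXB1 -0.21 to 0.0508, FOXC1 -0.41 to 0.33, FOXD3 -0.23 to 0.25 and FOXF1 -0.18 to 0.0182.

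No label says whether same-numbered libraries were handled together. Their deviations correlated at 0.0581 over 15136 genes, a single value that cannot show whether they shared a batch. A fit with the replicate block gave 13 differentially expressed genes in all and 0 among the regulators, with a median log2 fold change of -0.08, and changed no call of a regulator. With 2 libraries a genotype, the 95% interval reached a 2-fold change for 8 of the 29 regulators.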
